A study of Homo sapiens with 6 samples.

Results

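The genes described here are 9 genes of the p53 and RB pathways: MDM2, MDM4, CDKN1A, CDKN2A, RB1, E2F1, BBC3, BAX and GADD45A. They were taken by name from 19451 protein-coding genes of at least 1 kb on chromosomes 1 to 22 and X. The data were ChIP-seq peak lists from HEK293T, a human embryonic kidney line that carries the SV40 large T antigen and adenoviral early genes. All libraries came from these cells, fixed in formaldehyde, and the labels name no treatment. The histone variant H2A.Z was profiled with an antibody from CST (H2AZ CST) and with one from Abcam (H2AZ Abcam). The other antibodies were against the variant H3.3, H4 acetylated at lysine 16 (H4K16ac) and H3 dimethylated at lysine 79 (H3K79me2). Each antibody has 1 library. With no replicates there is no spread between samples, and no test between lists or genes was made. Values of the input library were not analysed here.

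p53 is a transcription factor that stops the cell cycle or starts apoptosis after damage, and MDM2 and MDM4 hold it in check. RB1 binds E2F factors and keeps S phase genes off until cyclin-dependent kinases phosphorylate it, and the products of CDKN1A and CDKN2A act on those kinases and on MDM2. Large T antigen is known to bind the p53 and RB proteins. H2A.Z and H3.3 are found in nucleosomes at active starts, H4K16ac is an acetylation of open chromatin, and H3K79me2 is written by DOT1L over the first part of transcribed genes.

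All 9 genes had at least 1 peak of each of the 5 lists in the gene or within 5 kb of it. Among all protein-coding genes, 81.1% had an H2AZ CST peak there, 81.1% an H2AZ Abcam peak, 73.5% an H3.3 peak, 68.0% an H4K16ac peak and 62.3% an H3K79me2 peak. Peaks of all 5 lists were found at 49.6% of protein-coding genes. The windows of the 9 genes held 27 H2AZ CST, 24 H2AZ Abcam, 52 H3.3, 37 H4K16ac and 38 H3K79me2 peaks. The strength of a peak is given below as the authors' −log10 q, a measure of the caller's certainty that grows with depth and is therefore compared only within a list. The read depths are unknown here. As a check of the lists, the ubiquitously active genes GAPDH and ACTB had peaks of all 5 lists and the hepatocyte gene ALB had none. PTPRC of blood cells had a single H2AZ Abcam peak at 6.29, and neither CDH5 of endothelium nor INS of beta cells had an H3K79me2 peak. Both had peaks of other lists: CDH5 had H2AZ of 54.7 (CST) and 127 (Abcam) and H4K16ac of 10.1. INS had H2AZ of 18.8 (CST) and 96.5 (Abcam), 10 H3.3 peaks of up to 13.0 and 14 H4K16ac peaks of up to 24.0. Among these markers, a peak of H2AZ, H3.3 or H4K16ac was thus also found at genes of other cell types.

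Sequences before the start are shown for MDM2, E2F1, CDKN2A and BBC3 only. They are the 250 bases before a RefSeq start of build GRCh38.p14, read 5′ to 3′ on the gene's own strand. Capitals mark matches to either of the 2 motifs searched. The first was the p53 consensus, 20 bases made of adjacent decamers without a spacer, with at most 3 mismatches. The motif is its own reverse complement. The second was the E2F consensus as the words TTTCCCGC, TTTCGCGC, TTTGCCGC and TTTGGCGC on both strands. No window shown held both motifs, so their matches do not overlap. Over the 300 bases around a listed start (250 before it and 50 from it on), 4.71% of 21252 listed starts of protein-coding genes had a p53 match and 4.10% an E2F match. A match is a description of letters only.
MDM2, upstream start, chr12:68807922-68808171, plus strand: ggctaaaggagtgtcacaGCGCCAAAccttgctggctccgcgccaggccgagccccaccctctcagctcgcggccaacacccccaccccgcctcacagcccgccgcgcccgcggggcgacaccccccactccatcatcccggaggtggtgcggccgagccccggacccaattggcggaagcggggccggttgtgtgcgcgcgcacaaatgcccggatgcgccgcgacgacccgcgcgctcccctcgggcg
MDM2, downstream start, chr12:68808767-68809016, plus strand: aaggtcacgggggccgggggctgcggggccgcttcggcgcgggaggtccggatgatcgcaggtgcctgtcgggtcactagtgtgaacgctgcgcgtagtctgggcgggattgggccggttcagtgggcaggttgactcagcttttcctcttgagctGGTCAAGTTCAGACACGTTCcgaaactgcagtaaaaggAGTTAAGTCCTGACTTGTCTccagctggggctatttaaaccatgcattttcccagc
E2F1, chr20:33686386-33686635, minus strand: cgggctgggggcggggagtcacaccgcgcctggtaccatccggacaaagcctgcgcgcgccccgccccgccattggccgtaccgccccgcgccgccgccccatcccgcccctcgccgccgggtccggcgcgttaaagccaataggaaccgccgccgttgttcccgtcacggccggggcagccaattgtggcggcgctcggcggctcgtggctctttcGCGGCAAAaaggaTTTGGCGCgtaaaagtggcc
CDKN2A, outer start, chr9:21995325-21995574, minus strand: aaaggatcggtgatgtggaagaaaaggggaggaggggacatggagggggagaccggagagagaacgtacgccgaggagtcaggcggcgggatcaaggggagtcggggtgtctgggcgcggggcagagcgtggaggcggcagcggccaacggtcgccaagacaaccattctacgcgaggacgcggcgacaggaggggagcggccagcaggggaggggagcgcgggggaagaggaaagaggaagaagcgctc
CDKN2A, inner start, chr9:21974858-21975107, minus strand: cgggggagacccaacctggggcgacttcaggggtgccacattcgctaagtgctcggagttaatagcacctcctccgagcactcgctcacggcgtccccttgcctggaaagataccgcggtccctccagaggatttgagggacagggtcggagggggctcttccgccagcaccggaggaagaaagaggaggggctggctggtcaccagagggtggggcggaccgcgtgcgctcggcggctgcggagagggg
BBC3, chr19:47232668-47232917, minus strand: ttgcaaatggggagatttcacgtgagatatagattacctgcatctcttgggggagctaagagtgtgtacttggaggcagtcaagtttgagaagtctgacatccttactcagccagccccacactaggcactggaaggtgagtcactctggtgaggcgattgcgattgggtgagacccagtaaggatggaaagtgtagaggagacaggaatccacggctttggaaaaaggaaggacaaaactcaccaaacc

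The downstream MDM2 start had 2 p53 matches, which 0.259% of listed starts had, and E2F1 had 2 E2F matches, which 0.198% had. The upstream MDM2 start had 1 E2F match, which lay under peaks of H2AZ CST, H2AZ Abcam and H3K79me2. No match to either motif was in the 300 bases around the listed starts of MDM4, CDKN1A, CDKN2A, BBC3 or BAX. Bases further from a start were not searched, so sites elsewhere at these genes would not have been seen. The only start listed for RB1 lies 172.70 kb into the gene, and its 1 p53 match there was 18223 bases from the nearest peak of any list. CpG dinucleotides numbered 46 in the 300 bases at E2F1, 39 at the upstream MDM2 start, 38 at BAX, 28 and 26 at the CDKN2A starts, 14 at MDM4 and 5 at BBC3, against a median of 21.0 over all listed starts.

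The strongest H3K79me2 and H3.3 peaks of the 9 genes were above the median of all protein-coding genes, whereas H2AZ was split around it. That median counts genes without a peak as 0, and since all 9 genes have a peak, the median over genes with a peak is given as well. For H3K79me2 the 9 values ran from 94.1 at RB1 to 669 at GADD45A, with a median of 299 against 45.0 over all genes and 188 over genes with a peak. RB1 and CDKN1A (184) were below the latter. For H3.3 they ran from 21.7 at RB1 to 188 at MDM2, with a median of 47.6 against 17.2 and 26.9, and RB1 was below the latter. For H4K16ac, 8 of the 9 genes were above the overall median of 7.96 by the strongest peak within 5 kb, with CDKN1A the exception at 5.46. Over genes with a peak the median was 12.0, and CDKN2A (8.31) was below it too. The H4K16ac values of BAX (18.5) and E2F1 (17.0) came from peaks beyond the gene. Inside E2F1 the strongest H4K16ac peak had 12.6, and those inside BAX had 4.75 and 4.56, below the value of CDKN1A. For H2AZ CST the median of the 9 was 30.6 against 30.4, and for H2AZ Abcam it was 91.5 against 89.2, with 5 genes above the overall median in each. Over genes with a peak the H2AZ medians were 38.1 (CST) and 116 (Abcam), above those of the 9 genes. The H2AZ medians of the 9 were thus close to those of all genes and under those of genes with a peak, while their H3.3, H4K16ac and H3K79me2 medians were above both. No test was made of these differences. The median share of a gene covered by peaks was 5.96% in H2AZ CST, 5.18% in H2AZ Abcam, 18.3% in H3.3, 7.55% in H4K16ac and 30.0% in H3K79me2. Over all protein-coding genes it was 1.05%, 1.20%, 0.832%, 0.497% and 1.37% in the same order. The 9 genes are shorter, with a median length of 12.0 kb against 25.6 kb, and the part of length in these shares was not tested.

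**Figure D1:**
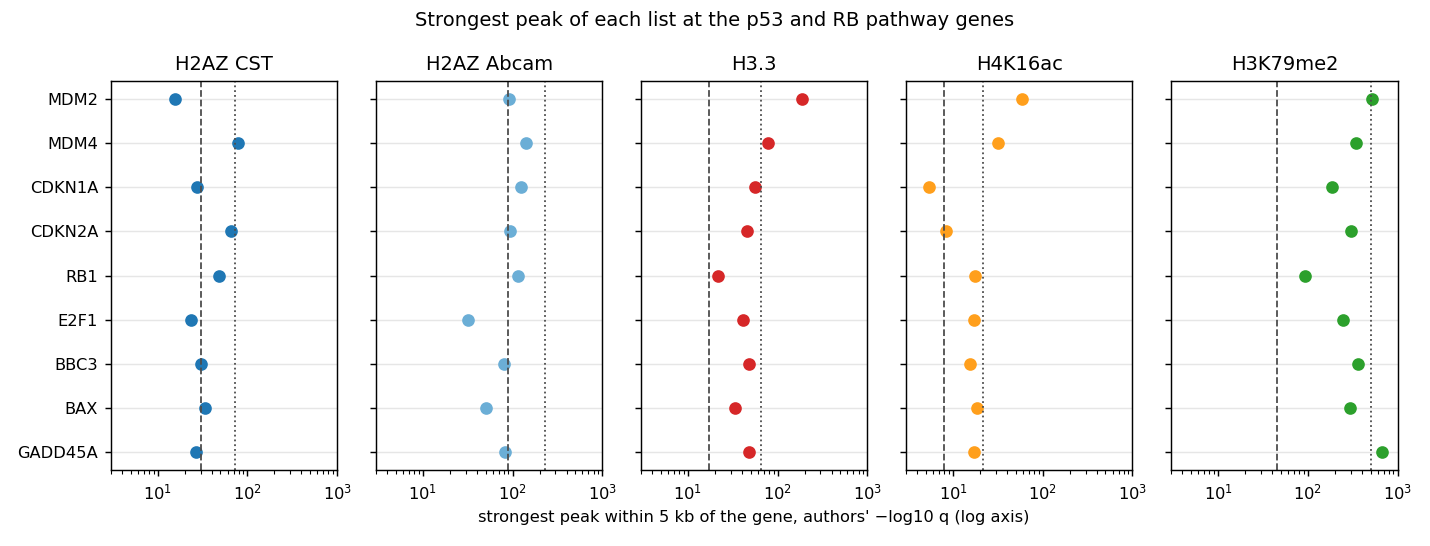
Strongest peak within 5 kb of each gene in each list, as the authors' −log10 q on a log axis, 1 point per gene from 1 library. The dashed line is the median over all protein-coding genes and the dotted line is the 90th percentile: all 9 H3K79me2 and H3.3 points lie right of the dashed line, and the H2AZ points lie on both sides of it.

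MDM2 encodes the ubiquitin ligase that degrades p53 and is itself a p53 target, read from an upstream start and from a p53-responsive start further in. It lies on chromosome 12 (68808172 to 68850686). Its strongest peaks had −log10 q of 15.4 in H2AZ CST, 91.5 in H2AZ Abcam, 188 in H3.3, 58.5 in H4K16ac and 516 in H3K79me2. Of all protein-coding genes, 99.9% had a weaker strongest peak in H3.3 and 99.7% in H4K16ac, but only 32.0% did in H2AZ CST and 50.9% in H2AZ Abcam. MDM2 thus had one of the strongest H3.3 and H4K16ac peaks of any gene. Its H2AZ Abcam peak was near the middle of all genes. Its H2AZ CST peak was below the median of 30.4 over all genes and the weakest of the 9 genes. The summits of these strongest peaks were past the upstream start by 153 bases (H2AZ CST), 177 (H2AZ Abcam), 341 (H3.3), 280 (H4K16ac) and 316 (H3K79me2). They were therefore between the 2 starts, which are 845 bases apart.

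The p53 matches of MDM2 lay at the edge of this block of variant nucleosomes and inside its H3K79me2. They begin 94 and 56 bases before the downstream start (chr12:68808923-68808942 with 2 mismatches and chr12:68808961-68808980 with 3). The last base of the H3.3 peak is the first base of the first match, an overlap of 1 base. The H2AZ Abcam peak ended 3 bases before that match, the H2AZ CST peak 84 bases before and the H4K16ac peak 111 bases before. All 20 bases of each match were under the H3K79me2 peak, which was 5.98 kb wide and reached 5.67 kb past the upstream start. Edges of peaks depend on the caller and on fragment length, and the libraries were selected for fragments longer than a match.

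MDM4, which binds and blocks the activation domain of p53, had the strongest H2AZ CST of the 9 genes. It lies on chromosome 1 (204516406 to 204558120). Its −log10 q was 78.1 in H2AZ CST, 140 in H2AZ Abcam, 77.7 in H3.3, 31.9 in H4K16ac and 348 in H3K79me2. The 4 narrow signals formed a single block of 313 to 450 bases with summits 147, 147, 175 and 156 bases past the start. H3K79me2 began 88 bases before the start and ran without a break for 8.36 kb into the gene. No further peak lay in the rest of this 41.7 kb gene. Weak H3.3 (6.31), H4K16ac (4.56) and H3K79me2 (4.48) peaks met before the start, with summits at −771, −794 and −792 bases, and a weak H3.3 and H4K16ac pair past its end (5.46 and 7.62) was beside the pseudogene RNA5SP74.

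CDKN2A encodes the kinase inhibitor p16 from the inner start and the MDM2 inhibitor ARF from the outer start, and each start carried all 5 signals. The gene lies on chromosome 9 (21967752 to 21995324), and the starts are 20.47 kb apart. Within 1 kb of the outer start the −log10 q was 26.3 in H2AZ CST, 88.3 in H2AZ Abcam, 36.0 in H3.3, 7.02 in H4K16ac and 299 in H3K79me2. Within 1 kb of the inner start it was 65.2, 92.7, 16.9, 7.45 and 145 in the same order. H2AZ CST was therefore stronger at the inner start, and H3.3 and H3K79me2 were stronger at the outer one. The strongest H3.3 peak of the gene, at 45.5, had its summit 1006 bases past the outer start, just beyond that range. The 250 bases before each start were covered in full by H2AZ Abcam and by H3K79me2.

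H3K79me2 was spread over most of CDKN2A. Its 13 peaks were the most of any of the 9 genes and covered 59.8% of the gene, more than in 94.5% of protein-coding genes. The widest, 10.4 kb, ran from 1769 bases before the outer start to 8.64 kb past it, and the one over the inner start was 3.53 kb wide. The outer start lies beside the start of CDKN2B-AS1, a long noncoding RNA read in the opposite direction, so the H3K79me2 before it cannot be told apart from that of its neighbour. A further H3.3 peak at 32.6 lay 26.71 kb past the outer start, near the far end of the gene and beside CDKN2A-AS1, with no peak of another list over it.

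**Figure D2:**
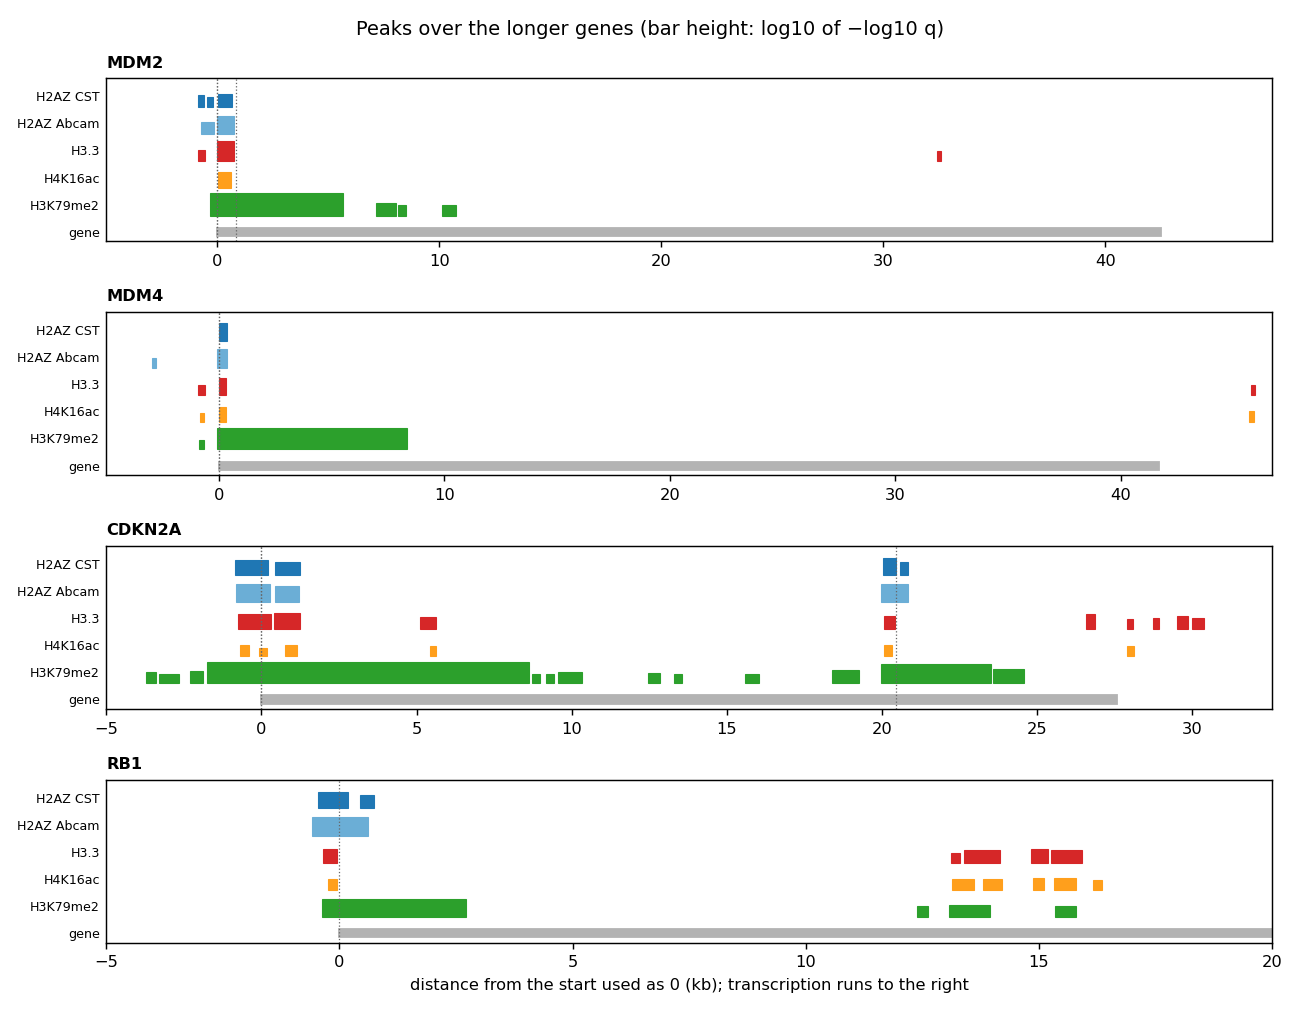
Peaks of the 5 lists over MDM2, MDM4, CDKN2A and the first part of RB1, by distance from the start in kb (5 kb are shown on either side, and RB1 to 20 kb only). Bar height is the logarithm of −log10 q, the grey bar is the gene and dotted lines are the starts: H3K79me2 runs 5.67 kb into MDM2 and 8.36 kb into MDM4, spans both starts of CDKN2A, and in RB1 a cluster without H2AZ lies between 12 and 17 kb.

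RB1, the retinoblastoma gene, had the weakest H3.3 and the weakest H3K79me2 of the 9 genes. It is the longest of them at 178 kb (chromosome 13, 48303751 to 48481890). Its −log10 q was 47.9 in H2AZ CST, 116 in H2AZ Abcam, 21.7 in H3.3, 17.5 in H4K16ac and 94.1 in H3K79me2. The H2AZ summits of both antibodies were at position −217 and the H3.3 summit at −214 relative to the gene's 5′ end, before the gene, where the divergent transcript RB1-DT starts. H3K79me2 began before that end, reached 2.72 kb into the gene and covered 2.41% of it with its other peaks.

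Inside RB1 lay a second group of peaks without H2AZ. Between 13.11 and 15.93 kb from the 5′ end there were 4 H3.3 peaks with −log10 q of 5.49, 13.0, 17.2 and 14.3. From 13.14 to 16.35 kb there were 5 H4K16ac peaks (7.45, 7.45, 11.6, 11.6 and 4.89), and from 12.39 to 15.80 kb there were 3 H3K79me2 peaks (6.92, 10.2 and 6.92). The stretch overlaps the pseudogene PPP1R26P1, whose CpG island is known as the imprinted element of RB1. Neither H2AZ antibody gave a peak there. The strongest H4K16ac peak of the gene, at 17.5, lay 153.94 kb in, with a weaker one at 4.41 beside it and no peak of any other list.

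E2F1, the activator of S phase genes that RB1 restrains, had a peak of only 1 list over its start, as did BBC3. The gene is on chromosome 20 (33675477 to 33686385). In the 300 bases around its start the H3K79me2 list alone had a peak, a combination found at 2.62% of listed starts. Over the same 300 bases 56.6% of listed starts had H2AZ CST, 60.9% H2AZ Abcam, 43.6% H3.3, 27.3% H4K16ac and 45.8% H3K79me2, and 16% had all 5. The H2AZ peaks nearest the E2F1 start ended 271 bases before it for CST (−log10 q 11) and 284 bases before it for Abcam (15.6). The nearest H3.3 peak began 835 bases inside the gene (9.75) and the nearest H4K16ac peak 6046 bases inside.

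The E2F words of E2F1 lay in that stretch. They begin 33 and 20 bases before the start, and a narrow H3K79me2 peak of 251 bases (7.04) covered both in full. Next to it, from 0.26 to 4.74 kb, came the strong H3K79me2 peak of the gene at 245. H3K79me2 covered 47.9% of E2F1, more than in 92.0% of genes. Towards its far end E2F1 had 3 H3.3 peaks between 9.27 and 10.75 kb with −log10 q of 20.6, 22.2 and 22.9, stronger than the H3.3 near its own start. An end of NECAB3 lies within 1 kb of the summit of the peak at 22.9, whose signal cannot be told apart from that of NECAB3. The strongest peaks of H2AZ CST (23.4), H2AZ Abcam (32.1), H3.3 (41.0) and H4K16ac (17.0) in the window lay beyond the far end of E2F1, inside the neighbouring gene NECAB3. With the gene body alone, E2F1 had no H2AZ peak of either antibody.

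Of the 10 starts listed for 8 of the genes, 5 had peaks of all 5 lists over their 300 bases: both of MDM2, that of MDM4 and both of CDKN2A. At the upstream MDM2 start H4K16ac reached the window by 1 base only. By list, 6 of the 10 starts had H2AZ CST, 7 H2AZ Abcam, 7 H3.3, 6 H4K16ac and 8 H3K79me2. Over all listed starts of protein-coding genes the shares were 56.6%, 60.9%, 43.6%, 27.3% and 45.8% in that order, and 16% had all 5. The same peak of each list reached both MDM2 starts, so these are not independent. CDKN1A had 4 lists there, BAX 3, and E2F1 and BBC3 had 1 each. The internal RB1 start had none. GADD45A has no listed start.

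CDKN1A encodes p21, the kinase inhibitor through which p53 arrests the cycle, and carried wide blocks of both variants with weak H4K16ac. On chromosome 6 (36676463 to 36687332), its listed start lies 2251 bases into the gene. Peaks had −log10 q of 27.2 in H2AZ CST, 125 in H2AZ Abcam, 55.7 in H3.3, 5.46 in H4K16ac and 184 in H3K79me2. The H4K16ac value was above that of only 38.1% of genes, the lowest standing of the 9 genes in that list by the strongest peak within 5 kb. The H4K16ac peaks inside BAX were weaker (4.75 and 4.56), but a stronger one lay beyond that gene. H2AZ CST extended over 1830 bases, H2AZ Abcam over 2181, H3.3 over 2013 and H3K79me2 over 2508. The H2AZ summits lay 1785 and 1768 bases past the start and the H3.3 summit 238 bases past it, so the variants shared a block but not its highest point. A second site 5.58 kb past the start had H3.3 (23.1), H3K79me2 (25.8) and weak H4K16ac (3.40) without H2AZ. H2AZ CST had a further peak at 12.0 with its summit at −2382 bases, before the listed start. An end of DINOL, a noncoding RNA of this locus, lies within 1 kb of several summits at the start, so their signal cannot be told apart from that of CDKN1A.

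GADD45A, a stress sensor of growth arrest and repair, had the strongest H3K79me2 of the 9 genes and is the shortest of them. The gene spans 3.13 kb of chromosome 1 (67685201 to 67688334). Its −log10 q was 26.7 in H2AZ CST, 82.0 in H2AZ Abcam, 47.6 in H3.3, 17.3 in H4K16ac and 669 in H3K79me2. The H3K79me2 value was above that of 96.7% of genes. The H2AZ CST, H2AZ Abcam and H3.3 peaks had nearly the same borders and widths of 1263, 1267 and 1300 bases, and H3K79me2 enclosed them with 1666 bases. H2AZ CST covered 40.3% of the gene, more than in 99.4% of genes, and nothing lay in the rest of its window.

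BBC3, which encodes the apoptosis inducer PUMA, had its signals well inside the gene and not at its listed start. The gene lies on chromosome 19 (47220824 to 47232860). At the start itself only an H3.3 peak at 3.59 reached the 300 bases, and these were poor in CpG. The nearest H2AZ peaks began 889 bases past the start for CST and 894 for Abcam, with −log10 q of 30.6 and 79.9. H3K79me2 began 1488 bases past it and ran to 6.42 kb with a value of 362. H3.3 formed 11 peaks, the most of the 9 genes, which covered 45.2% of BBC3, more than in 95.6% of genes. The strongest of them (47.7) lay 11.36 kb past the start, near the far end, with H4K16ac at 7.45 and H3K79me2 at 4.91 and a weak H2AZ CST peak at 4.14.

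BAX encodes the pore-forming executor of mitochondrial apoptosis, and its window also takes in the start of FTL, the ferritin light chain gene. BAX lies on chromosome 19 (48954875 to 48961798). At its own start the −log10 q was 30.6 in H2AZ CST, 50.2 in H2AZ Abcam, 4.52 in H3.3, 4.75 in H4K16ac and 295 in H3K79me2. The H3.3 and H4K16ac there were weak, and H3K79me2 was 1.62 kb wide. H3.3 was stronger at the far end, with peaks of 24.1, 28.3 and 26.4 between 5.75 and 7.68 kb. Beyond the gene, 9.14 kb from its start and before FTL, H2AZ CST (33.4), H2AZ Abcam (32.9), H3.3 (33.3), H4K16ac (18.5) and H3K79me2 (7.38) met at a single site. For H2AZ CST, H3.3 and H4K16ac that site was the strongest in the BAX window, so the BAX values of those lists describe the neighbourhood and not its start.

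**Figure D3:**
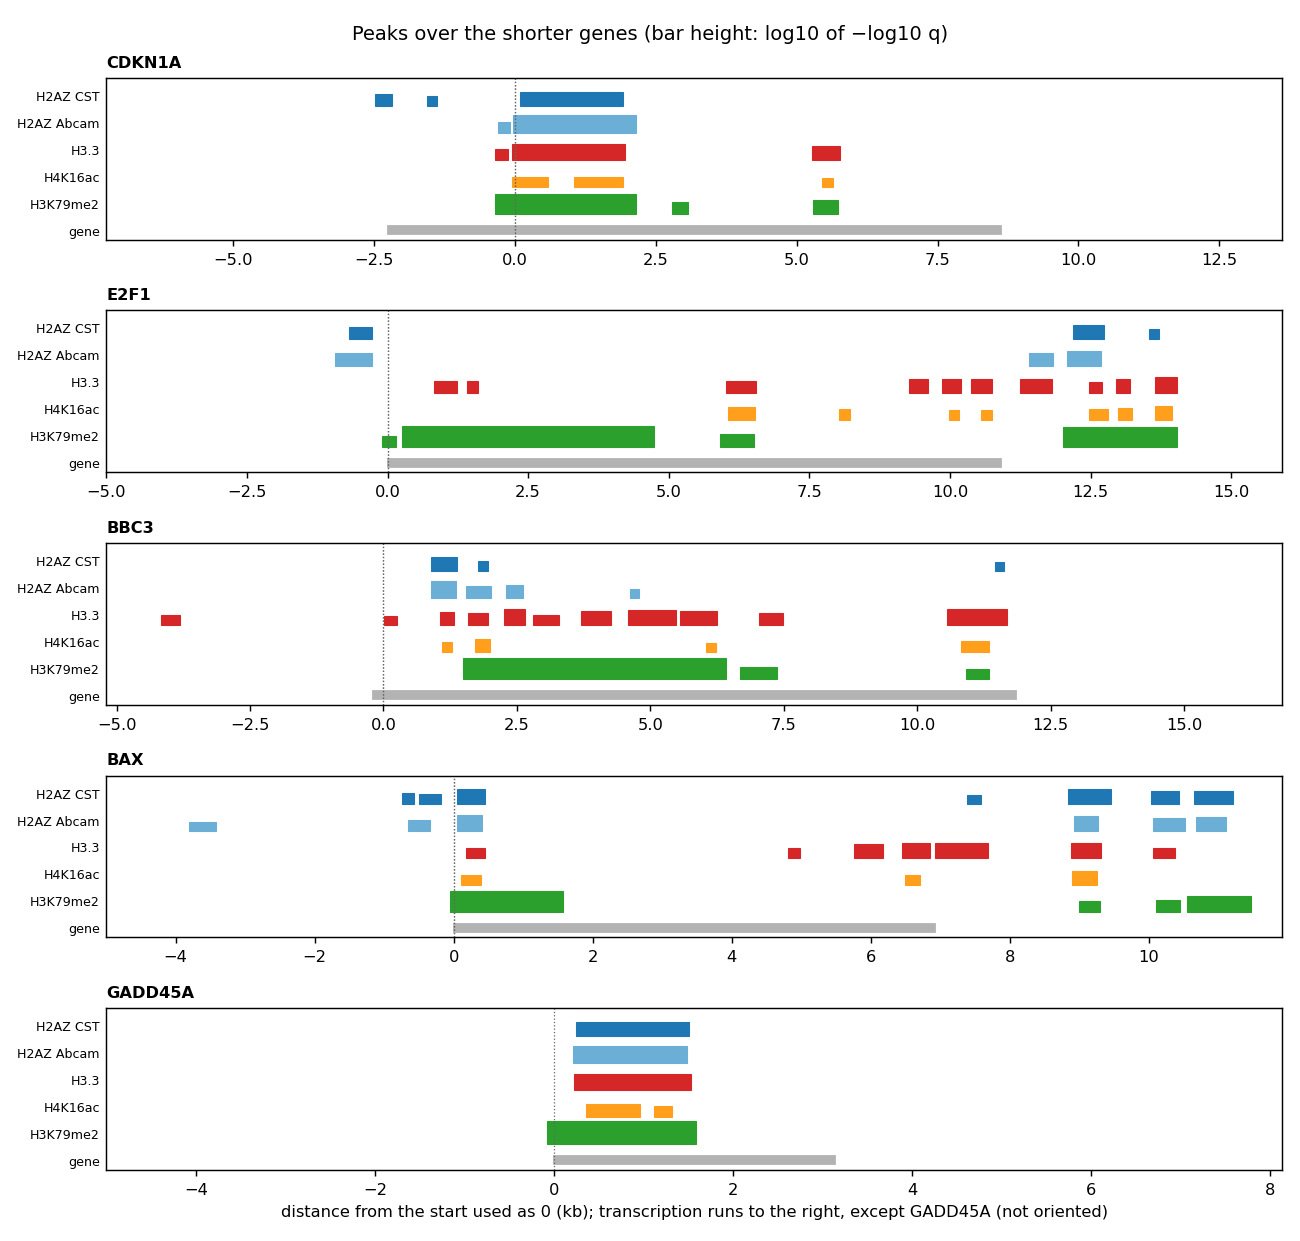
Peaks of the 5 lists over CDKN1A, E2F1, BBC3, BAX and GADD45A with 5 kb on either side, by distance from the start in kb (for GADD45A from the lower gene end, not oriented). Bar height is the logarithm of −log10 q and the grey bar is the gene: at CDKN1A and GADD45A the signals share 1 block, at E2F1 H2AZ ends 271 and 284 bases before the start, and at BBC3 it begins 889 and 894 bases past it.

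Summits lay past the start at some of these genes and before it at others. Over all listed starts with a summit within 1 kb, the median was 85.0 bases past the start in H2AZ CST, 99.0 in H2AZ Abcam, 121 in H3.3, 163 in H4K16ac and 263 in H3K79me2. At MDM4 and BAX and at the upstream MDM2 start, every list's strongest summit within 1 kb was past the start, between 147 and 341 bases. At E2F1 the H2AZ summits were before it, at −528 and −683, beyond the lower quartiles of −279 and −250. At the inner CDKN2A start the strongest summit of every list was before the start, between −156 and −300 bases. H4K16ac (−300) and H3K79me2 (−232) were there beyond their lower quartiles of −251 and 83.0. The MDM2 peaks named above also lay before the downstream MDM2 start.

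The H3K79me2 peak over the start ranged widely in width among these genes. It was 10.4 kb wide at the outer CDKN2A start, 8.45 kb at MDM4, 5.98 kb at MDM2, 3.53 kb at the inner CDKN2A start, 2.51 kb at CDKN1A, 1.62 kb at BAX and 0.251 kb at E2F1. The median over 8569 listed starts under an H3K79me2 peak was 2.60 kb, with quartiles of 1.32 and 4.93 kb. MDM4 and the outer CDKN2A start were wider than 89.5% and 92.6% of them. The E2F1 value is that of the narrow peak alone, which a short break separates from the next.

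**Figure D4:**
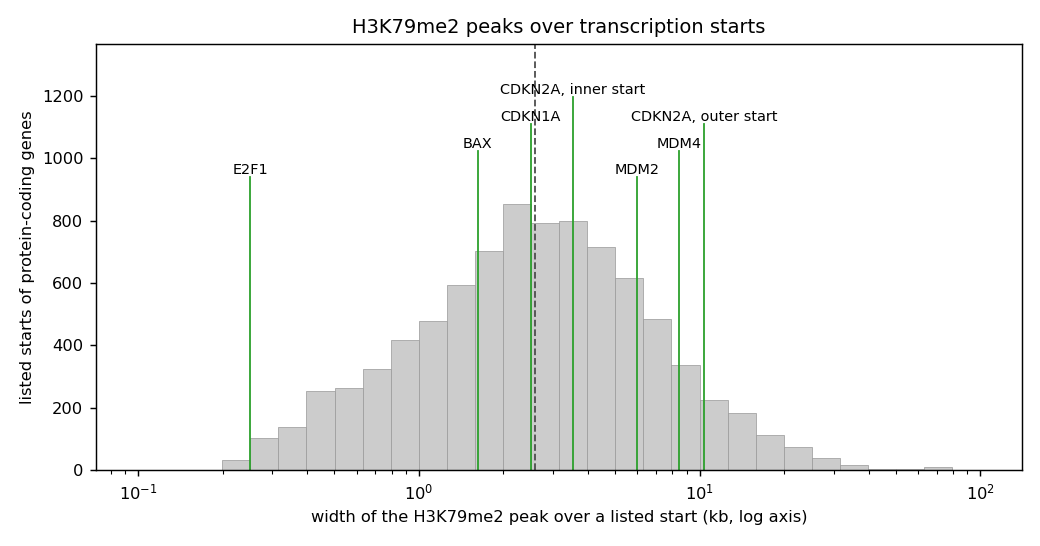
Widths of H3K79me2 peaks that lie over a listed start (grey histogram of 8569 starts of protein-coding genes, log axis in kb, dashed line at the median of 2.60 kb), with the widths at starts of the described genes in green. MDM2, MDM4 and the outer CDKN2A start lie to the right of the upper quartile of 4.93 kb, and E2F1 lies at the far left with 0.251 kb.

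Between the antibodies to H2A.Z, the strong sites were shared. With the CST antibody 22 of 27 peaks met one of the Abcam list, and the strongest of the 5 others, before CDKN1A, had 12.0. With the Abcam antibody 18 of 24 met one of the CST list, and the strongest of the 6 others, inside BBC3, had 17.1. Away from every listed start, and from the gene ends used as starts at RB1 and GADD45A, 36 H3.3 peaks lay in the windows of the 9 genes. H4K16ac overlapped 55.6% of them, H3K79me2 52.8% and H2AZ of either antibody 25%. In the windows of all protein-coding genes with a listed start the shares were 62.8%, 28.8% and 22.8% of 36271 H3.3 peaks. Only peaks near listed starts were left out there, so peaks at starts that are not listed remained. By the same rules, 84.6% of 26 H4K16ac peaks away from starts overlapped H3.3 and 57.7% H3K79me2, against 57.1% and 20.5% of 40993 in all windows. The peaks of a gene are not independent, and BBC3, E2F1 and CDKN2A supplied many of them. All 9 genes had an H3K79me2 peak, against 62.3% of all protein-coding genes. H3K79me2 covered a median of 30.0% of these genes, against 1.37% over all. The windows compared were thus unlike in H3K79me2, and the part of this in the overlaps with H3K79me2 was not tested.

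Genes with the most similar pattern were found by the mean difference in percentile rank of the strongest peak over the 5 lists. They were LUC7L3 and MTHFD2 for MDM2 (differences of 3.01 and 3.67 percentile points), MKNK2 and AHDC1 for MDM4 (1.98 and 3.13), and RAD51C and IGBP1C, which share their peaks, for CDKN1A (2.48 each). For CDKN2A they were EEF1AKMT3 and HGSNAT (3.81 and 4.30), for E2F1 TRAPPC10 and BTBD6 (2.27 and 3.18), and for BBC3 HSD17B8 (2.18). YY1 and ENTR1 were nearest GADD45A (2.47 and 2.58), and GGT1 and LRRC75B, which share peaks, were nearest RB1 (2.96 each). GYS1 came closest to BAX at 0.924, and the windows of these neighbours share peaks, followed by UCK1 at 3.27.

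Among 84 other genes of the same pathways, 82 had an H2AZ CST peak within 5 kb, 82 an H2AZ Abcam peak, 82 an H3.3 peak, 75 an H4K16ac peak and 78 an H3K79me2 peak. The shares over all protein-coding genes were 81.1%, 81.1%, 73.5%, 68.0% and 62.3% in that order. All 5 lists were found at 70 of the 84, against 49.6% of all genes. The median strongest H3K79me2 peak was 263 against 45.0 over all genes, and the median H2AZ CST peak was 36.1 against 30.4. These medians count genes without a peak as 0. Over protein-coding genes with a peak the medians were 188 for H3K79me2 and 38.1 for H2AZ CST, the latter above that of the 84 genes. TP63, a p53 relative of epithelia, had a single H4K16ac peak at 4.11, and EDA2R, a receptor gene on chromosome X, had no peak of any list. Every other gene had H2AZ from both antibodies.

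The 6 genes without H3K79me2 were in the p53 lists, and the difference between lists was not tested. Among 15 targets of apoptosis 11 had H3K79me2 (73.3%), still a larger share than the 62.3% of all protein-coding genes. FDXR, TP53AIP1, SPATA18 and EDA2R lacked it, and TRIAP1 (718, with 100% of the gene covered) and PIDD1 (538, 75.9%) led. Among 15 targets of arrest and repair 14 had it, led by POLH (737), SESN2 (706, 49.4%) and BTG2 (343, 37.5%), and GDF15, a secreted stress factor, lacked it. Of 15 regulators 14 had it, led by the coactivator EP300 (583) and USP7, which removes ubiquitin from p53 and MDM2 (509, 49.0%).

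All 11 RB family and E2F factor genes, 13 G1 cyclin, kinase and inhibitor genes and 15 E2F targets had H3K79me2, against 62.3% of all protein-coding genes. E2F3 (607), E2F5 (504) and TFDP1, the E2F partner (346, 71.1% covered), led the first of these. CDKN1B, which encodes the inhibitor p27 (731, 100%), and CDK4 (555, 70.0%) led the next. CDT1, a licensing factor (861, 98.0%), the phosphatase gene CDC25A (803) and CDK1 (618, 77.6%) led the E2F targets. The 15 E2F targets had a median H3K79me2 peak of 562, the highest of the 6 lists, with a median H2AZ CST peak of 25.5. Among the 84 genes H4K16ac was the list most often missing, at ATM, RCHY1, ZMAT3, TIGAR, PMAIP1, EDA2R, TFDP2, CDC6 and POLA1. It was still found at 89.3% of them, against 68.0% of all protein-coding genes. Over all protein-coding genes H3K79me2 was the list most often missing, with a peak at 62.3%.

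**Figure D5:**
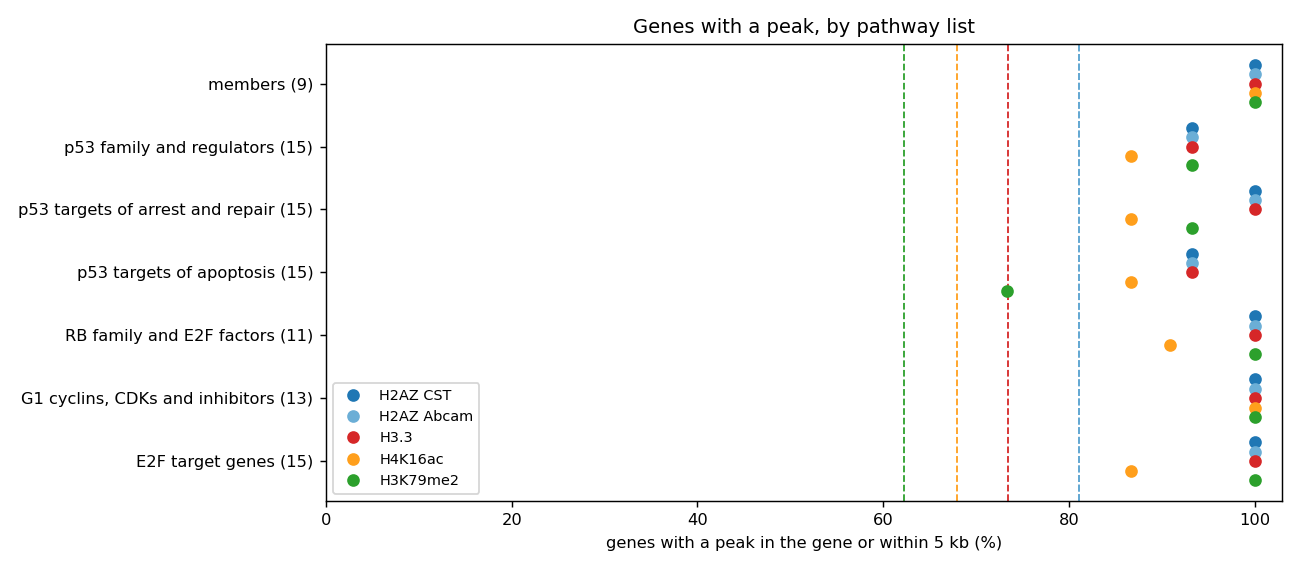
Percent of genes with a peak in the gene or within 5 kb, by pathway list (number of genes in brackets, members being the 9 described genes) and peak list (colours), with dashed lines at the percent of all protein-coding genes, which coincide at 81.1% for the H2AZ lists. The lowest point is H3K79me2 at the targets of apoptosis, 11 of 15 genes, or 73.3% against 62.3% of all protein-coding genes.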

How the data were processed

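Peak lists were the starting point, 1 per antibody and each from a single library. Per the submitters' processing notes, the tools were MACS2 2.1.0, Bowtie 1.1.2, Trimmomatic 0.33 and bcl2fastq 2.17, with build hg38, and no role or order is stated. For settings, use of the input and read depths no statement was found. Each deposited list holds a linear fold enrichment per peak, −log10 p and −log10 q (the smallest q entries between 2.00 and 2.06) and an integer score, all of them the authors' values. The score was not used. Genes and starts came from RefSeq tables of GRCh38.p14, the assembly of hg38. All 9 genes matched a gene record, and 8 matched the promoter table. Starts of a gene within 50 bases of each other were merged.

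With Python 3.11.15, pandas 2.3.3 and numpy 2.4.6, a peak was assigned to a gene when at least 1 base overlapped the gene or 5 kb on either side. Percentiles are shares of the 19451 protein-coding genes with a lower value, genes without a peak counting as 0. The overlap code was checked on made-up intervals. No test was planned or run, because each antibody has 1 library. The genes and the 6 pathway lists were chosen with earlier results of these data known. Named from the pathway lists are genes without H2AZ, the 2 with the strongest H3K79me2 and the 2 with the largest share covered by it. Some genes that fell under the naming rules are not reported here. Genes that lacked H3K79me2 or H4K16ac were named after their values were seen. Genes whose ends lie within 1 kb of a peak summit could also be named. Other windows, thresholds and overlaps were tried.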

Additional observations from a re-analysis of the deposited data

How the results depend on the processing

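Counts of the 9 genes with a peak stayed within 1.5 times the reported value in 38 of 40 alternatives. The other 2 kept the 10000 strongest peaks of a list, which left 4 genes in H2AZ CST (46.5% of all protein-coding genes; without GADD45A, CDKN1A, MDM2, BBC3 and E2F1) and 3 in H2AZ Abcam (48.4%; without GADD45A, CDKN2A, MDM2, BBC3, BAX and E2F1). With that limit 8 genes had H3.3 (36.1% of all protein-coding genes), 7 H4K16ac (27.1%) and 9 H3K79me2 (49.6%). The median share of a gene covered, 5.96% in H2AZ CST, 5.18% in H2AZ Abcam, 18.3% in H3.3, 7.55% in H4K16ac and 30.0% in H3K79me2, fell to 0, 0, 5.30%, 0.345% and 23.1% there, where the median over all genes was 0 in every list. With −log10 q of at least 5 it was 5.60% in H2AZ CST, 14.5% in H3.3 and 3.0% in H4K16ac. The percent of genes with a peak, in the same order of lists, was 82.4%, 82.2%, 74.7%, 69.0% and 64.3% over genes in the length range of the 9. Over all annotated genes of at least 1 kb it was 54.9%, 54.5%, 48.3%, 46.0% and 37.6%. Counts over the 84 other pathway genes stayed within 1.5 times in 25 of 25 alternatives. Those varied only the window and the overlap rule. The limits of −log10 q and of the 10000 strongest peaks were not applied to these genes. An alternative chosen after seeing the data required a summit within 1 kb of a gene's own start. It left 7 genes in H2AZ CST, 8 in H2AZ Abcam, 9 in H3.3, 7 in H4K16ac and 8 in H3K79me2, against 72.8%, 73.2%, 65.1%, 53.5% and 56.4% of genes with a listed start. BBC3 dropped out of all of these but H3.3. For RB1 and GADD45A an end of the gene record counted as a start here, while the shares over all genes rest on listed starts. At its listed start RB1 had no summit of any list within 1 kb, and GADD45A has no listed start. The counts and the shares are therefore not like for like.

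No paired analysis was possible because each antibody has 1 library and no test was run. Depth is unknown, so a missing peak is only one that did not pass the caller's threshold, and −log10 q cannot be compared between lists.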
